A study of Mus musculus with 10 samples.

Results

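The genes described here are the nuclear genes for the respiratory chain and the ATP synthase of mitochondria. They were chosen by symbol as every protein-coding gene of the mouse GRCm38 annotation that starts with Nduf, Sdh followed by a to d, Uqcr, Cox4 to Cox8, or Atp5, which gave 98 of 21938 nuclear protein-coding genes. Complex I holds 46 of them, complex II 8, complex III 8, complex IV 18 and the ATP synthase 18. The 98 genes carry 97 symbols, because Atp5o names a pair of overlapping gene models.

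Complexes I to IV pass electrons from NADH and succinate to oxygen and pump protons across the inner mitochondrial membrane, and the ATP synthase lets the protons flow back to make ATP. Each complex is built from core subunits that carry the chemistry, accessory subunits that stabilise it, and assembly factors that act on it only while it is put together. A few subunits of complex IV exist as isoforms that are restricted to tissues such as heart, skeletal muscle, lung or testis. H3K4me3, trimethylation of lysine 4 of histone H3, lies around the start sites of actively transcribed genes, and genes needed in every cell usually carry it.

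CUT&Tag, which uses an antibody to bring a transposase to the mark, had been run for H3K4me3 on 10 untreated libraries of mouse nEnd, naïve extra-embryonic endoderm derived from embryonic stem cells and kept on mouse embryonic fibroblast feeders in RACL medium (RPMI with Activin A, CHIR99021 and LIF). All cells came from a single OCT4-mCherry reporter line and were sorted on that reporter and on surface PDGFRA into Oct4+ nEnd (4 libraries), double positive (DP) nEnd (3) and Pdgfra+ nEnd (3). The single-cell part of the study looked for functional terms among the genes that differed between DP and Pdgfra+ cells, metabolic terms included, and here the promoters of 1 metabolic system are compared between the same populations and Oct4+ nEnd. Each library is a list of SEACR peaks with a total signal, which adds up the coverage along the peak, and a highest coverage. The coverage had not been scaled, so signals were used as percentiles within a library, where 100 is the strongest.

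The libraries differed in size before any comparison was made. They held 3477 to 10545 peaks. Oct4+ nEnd replicates 3 and 4 had the fewest, 3477 and 4887, and Pdgfra+ nEnd replicate 2 had 6510 peaks and the smallest median width, 2204.5 bp. The consensus peaks deposited for Oct4+ nEnd were recovered in full, 7860 of 7860, from replicates 1, 2 and 4, so Oct4+ nEnd stands for these 3 libraries below and replicate 3 is given separately. Markers of the populations were read first. Promoters of Pou5f1, Nanog, Sox2 and Esrrb had a peak in every Oct4+ and DP library and in none of Pdgfra+ nEnd, all 6 primitive endoderm markers had one in every DP and Pdgfra+ library, and 9 of 10 fibroblast markers had none in the 9 libraries. The exception, Twist1, had a peak in 5 of these 9. In Oct4+ nEnd the endoderm markers Gata6 and Sox17 had a peak in 2 of 3 libraries and Gata4 and Pdgfra in 1, while Dab2 and Foxa2 had none.

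A promoter was taken as the stretch that begins 1000 bp before a start site and ends 100 bp after it, and a gene is called marked if any of its promoters overlapped a peak. Respiratory chain and ATP synthase genes were marked more often than genes at large in each of the 10 libraries. In Oct4+ nEnd, 84, 81 and 53 of the 98 were marked in replicates 1, 2 and 4, and 37 in replicate 3. In DP nEnd the counts were 79, 86 and 80, and in Pdgfra+ nEnd 88, 66 and 80. The 3 lowest counts fell in the 3 libraries with the fewest peaks. Over the 3 libraries of each population the mean was 72.7 ± 17.1 genes in Oct4+, 81.7 ± 3.79 in DP and 78.0 ± 11.1 in Pdgfra+ nEnd (SD, n = 3 each), and the ranges overlapped. These differences were not tested.

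**Figure D1:**
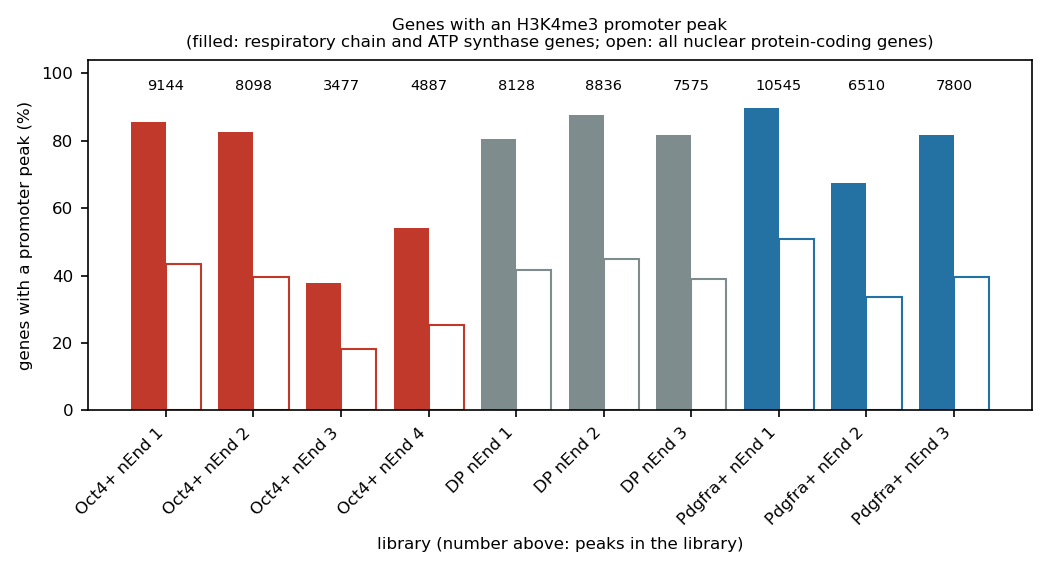
Percentage of genes with an H3K4me3 promoter peak (y axis) in each of the 10 libraries (x axis), for the 98 respiratory chain and ATP synthase genes (filled bars) and all 21938 nuclear protein-coding genes (open bars), with the number of peaks of the library above. The filled bar is the taller in every library, from 37.8% against 18.3% in Oct4+ nEnd 3 to 89.8% against 50.8% in Pdgfra+ nEnd 1.

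In every library of a population the mark was found at 53 of the 98 genes in Oct4+ nEnd (54.1%), against 25% of all genes, at 78 in DP nEnd (79.6%), against 38.6%, and at 66 in Pdgfra+ nEnd (67.3%), against 33.2%. With replicate 3 the Oct4+ count was 37 (18.1% of all genes). When each library was reduced to the same number of peaks, the strongest by total signal, the counts were 47 in Oct4+, 48 in DP and 44 in Pdgfra+ nEnd, where those of all genes were 21.9%, 24.9% and 22.9%. No member had a peak in all 3 libraries of one population and in none of another, in any of the 6 directions. The same pattern was found for 0.451% of all genes in Oct4+ over DP nEnd, 1.93% in DP over Oct4+, 0.597% in Oct4+ over Pdgfra+, 1.42% in Pdgfra+ over Oct4+, 0.109% in DP over Pdgfra+ and 0.00456% in Pdgfra+ over DP nEnd, so 0 of 98 is close to this background.

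The genes marked in every library were counted for each complex, without a test between complexes. A peak in 9 of 9 libraries was found for 23 of 46 complex I genes, 3 of 8 complex II genes, 5 of 8 complex III genes, 5 of 18 complex IV genes and 12 of 18 ATP synthase genes, together 48 of 98 (49.0%), against 21.7% of all genes. Of the 18 complex IV genes 7 are tissue-restricted isoforms. All 5 subunits of the catalytic F1 part of the ATP synthase, Atp5a1, Atp5b, Atp5c1, Atp5d and Atp5e, were among them, as were 7 of 12 genes of the membrane part and stalks. The 12 core subunits of complexes I, II and III counted here, which include the flavin and iron-sulphur proteins, were all marked in every DP library, and 7 of them in all 9. Of the 12 assembly factors, 4 were marked in all 9 libraries, Ndufaf2, Ndufaf3, Ndufaf8 and Sdhaf2.

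A peak in some of the 9 libraries was found for 42 genes, and 29 of these lacked it only in Oct4+ nEnd 4, in Pdgfra+ nEnd 2, or in both, the smallest of the 9 libraries. The other 13 were marked in 1 to 6 of the 9 libraries. Ndufc2, an accessory subunit of complex I, and the assembly factors Ndufaf1 and Sdhaf4 had a peak only in Pdgfra+ nEnd 1, the largest library, and Cox7b only in Oct4+ nEnd 1. Ndufaf4 and Sdhaf1 were marked in 2 libraries, Cox6b1 in 3, Ndufa3, Cox7a2 and Cox7c in 4, Ndufs5 and Sdhaf3 in 5, and Ndufa1 in 6. Where Sdhaf1 had a peak it was a strong one, with a median at the 80.3 percentile by highest coverage, against 11.7 for Ndufaf4, but both of its peaks are shared with E130208F15Rik.

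**Figure D2:**
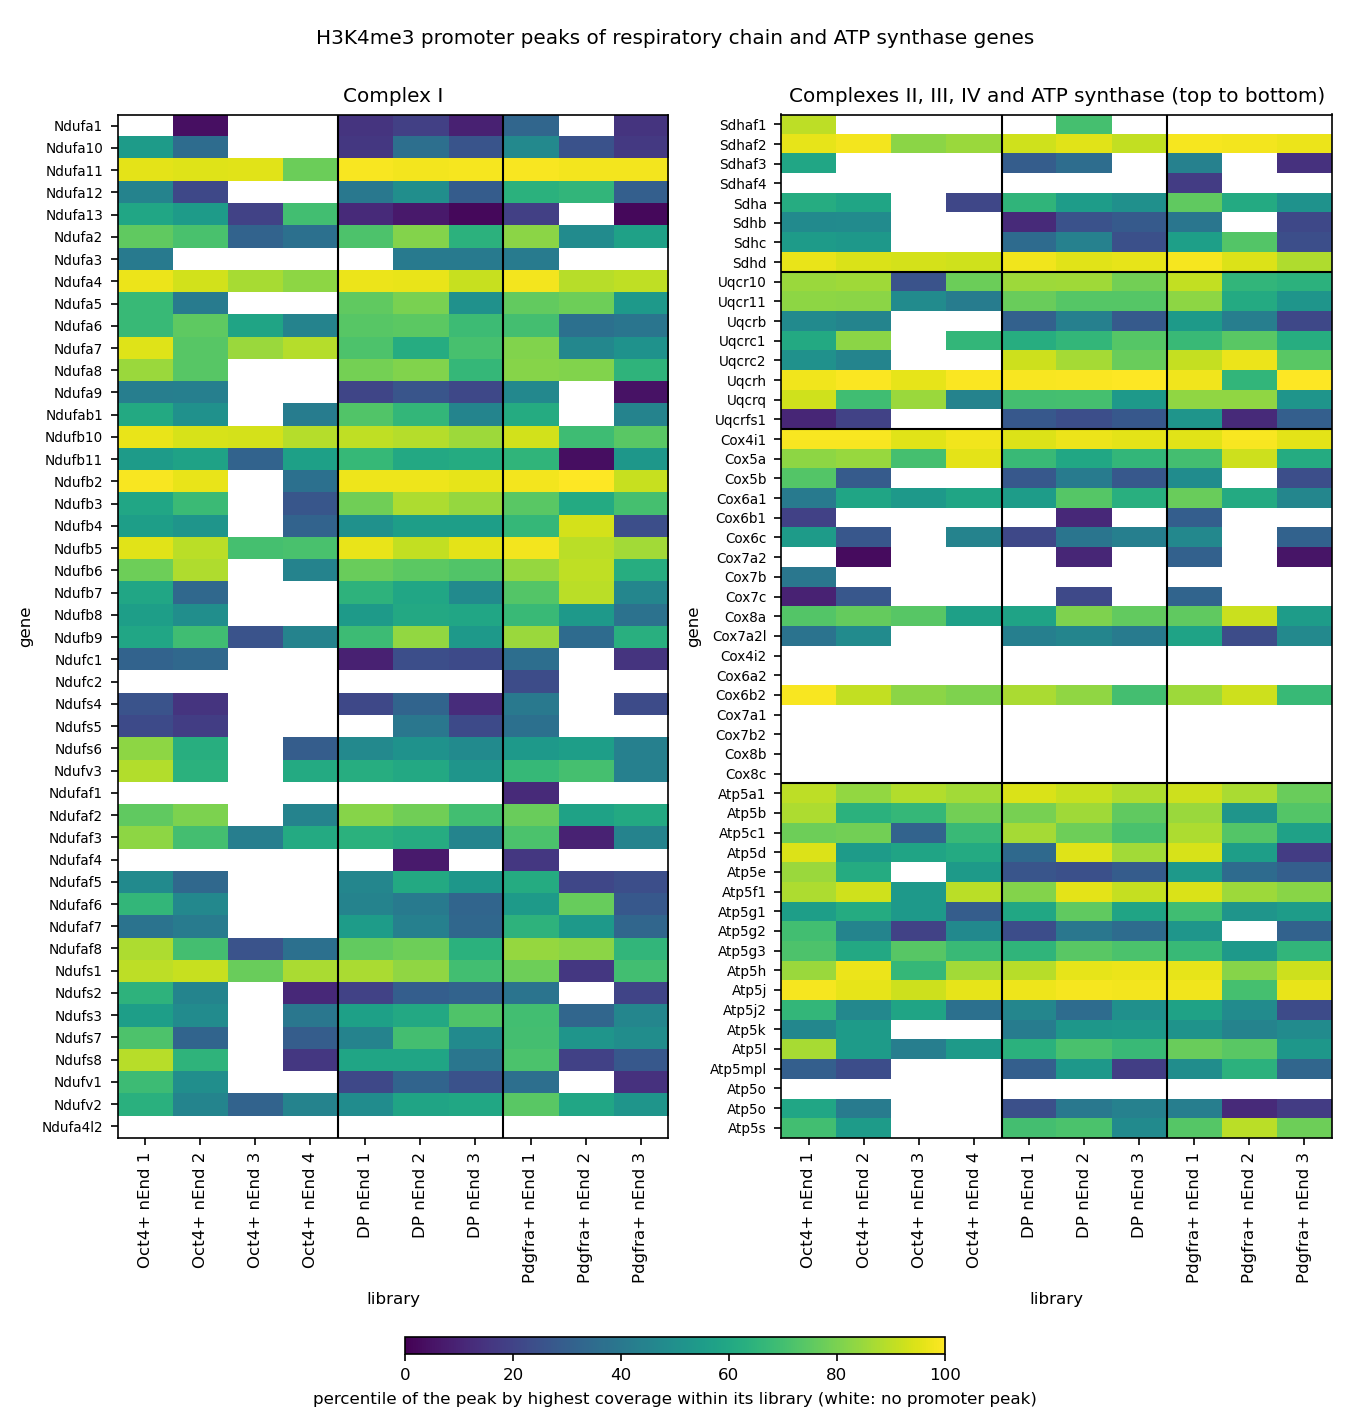
Each cell gives the percentile of a gene's promoter peak by highest coverage among all peaks of its library (colour, 0 to 100), with genes as rows grouped by complex and libraries as columns. White cells are genes with no promoter peak, which fill the rows of 8 genes and are most frequent in Oct4+ nEnd 3 and 4, where 37 and 53 of the 98 genes had a peak.

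The tissue-restricted isoforms were the genes without the mark. Of the 8 genes with no promoter peak in any of the 10 libraries, 7 are such isoforms, and the other is the second Atp5o model (ENSMUSG00000116933). A peak in 0 of the 9 libraries was found for 8.16% of the members and for 47.0% of all genes. Cox4i2, the lung and hypoxia-responsive form, was unmarked, while its ubiquitous partner Cox4i1 had a peak in every library, between the 94.5 and the 99.2 percentile by highest coverage. Cox6a2, Cox7a1 and Cox8b, the heart and skeletal muscle forms, were unmarked, and so were Cox7b2, Cox8c and Ndufa4l2. Of their ubiquitous partners, Cox6a1 was marked in 10 of 10 libraries (41.3 to 77.0 percentile), Cox8a in 10 of 10 (55.1 to 92.1) and Ndufa4 in 10 of 10 (82.9 to 98.4). Cox7a2 was marked in 4 of the 10 at the 2.91 to 31.1 percentile and Cox7b in 1 of the 10.

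Cox6b2, the testis form of subunit 6b, went the other way. It had a promoter peak in 10 of 10 libraries, at the 99.1, 90.8, 82.7 and 80.7 percentile by highest coverage in Oct4+ nEnd 1 to 4, at 87.1, 83.5 and 70.3 in DP nEnd and at 85.4, 92.5 and 67.4 in Pdgfra+ nEnd. Its ubiquitous partner Cox6b1 had a peak in 1 library of each population, at 19.3, 11.3 and 30.0. All 10 values of Cox6b2 lie above all 3 of Cox6b1. The peak over Cox6b2 overlapped the promoter window of no other protein-coding gene, and its width was 1913 to 4585 bp.

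The sequence upstream of the start site is shown for some of these isoforms and their partners as a description. Its relation to the mark was not tested. RefSeq promoter windows (GRCm38.p6, 300 bases, 250 of them before the start site) were matched by symbol for 78 of the 97 symbols. Each stretch below is read 5′ to 3′ on the strand of the gene, ends at or up to 37 bases before the start site, overlaps no annotated exon, and has its CpG dinucleotides in capitals. The stretches are chr19:7217617-7217766 (minus strand), chr7:140900447-140900596 (minus), chr9:79759879-79760028 (minus), chr7:30183994-30184143 (plus), chr7:30626152-30626301 (minus) and chr7:4753095-4753225 (minus).
Cox8a: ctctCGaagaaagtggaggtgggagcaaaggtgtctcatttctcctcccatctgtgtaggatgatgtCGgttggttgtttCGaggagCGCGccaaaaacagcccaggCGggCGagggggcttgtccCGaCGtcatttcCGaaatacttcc
Cox8b: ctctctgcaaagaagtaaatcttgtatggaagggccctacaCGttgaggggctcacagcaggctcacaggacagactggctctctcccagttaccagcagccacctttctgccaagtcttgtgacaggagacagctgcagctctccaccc
Cox7a2: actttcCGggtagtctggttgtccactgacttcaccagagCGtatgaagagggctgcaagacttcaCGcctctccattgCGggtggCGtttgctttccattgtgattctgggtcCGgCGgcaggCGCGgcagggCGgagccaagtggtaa
Cox7a1: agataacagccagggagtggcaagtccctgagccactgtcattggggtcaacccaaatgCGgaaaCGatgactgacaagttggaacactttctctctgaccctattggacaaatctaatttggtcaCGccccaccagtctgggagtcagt
Cox6b1: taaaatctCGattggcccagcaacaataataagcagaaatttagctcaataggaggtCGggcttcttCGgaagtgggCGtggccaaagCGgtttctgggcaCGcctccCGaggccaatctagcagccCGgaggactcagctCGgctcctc
Cox6b2: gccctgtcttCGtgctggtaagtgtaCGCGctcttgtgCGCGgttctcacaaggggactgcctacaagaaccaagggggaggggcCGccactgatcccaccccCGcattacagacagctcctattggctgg
Cox8a, which was marked in every library, has 10 CpG in this stretch and the unmarked Cox8b has 1. Cox7a2 has 10 and Cox7a1 has 3, although the former was marked in only 4 libraries. Cox6b1 has 9 in 150 bases and Cox6b2 has 7 in 131.

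Over the whole windows, the median number of CpG was 20 in the 83 windows of the members and 14 in the 20150 windows of all matched genes. It was 21 for members marked in 9 of 9 libraries (45 windows), 19 for those marked in some (35) and 7 for the 3 unmarked isoforms with a window, Cox7a1, Cox7b2 and Cox8b, with a range of 2 to 10. All genes showed the same order, with medians of 25, 19 and 4. Cox6b2 has 10 CpG and an observed over expected ratio of 0.432, near the unmarked isoforms, whereas the ratio is 0.807 for Cox6b1 and the median over the always marked members is 0.855.

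Cores of the motifs of factors known to act on nuclear genes of the respiratory chain were then counted in the same windows, on both strands. The core of NRF1, CATGCGC, was found in 18.1% of the members' windows and in 4.94% of all windows. The ETS core CCGGAAG, to which GABPA binds, was found in 25.3% against 11.9%, the YY1 core AAGATGG in 13.3% against 6.30%, and the core AAGGTCA of the estrogen-related receptors in 9.64% against 3.97%. GGGCGG of SP and KLF factors and CCAAT of NFY, at 45.8% and 42.2%, compared with 47.8% and 37.8% of all windows. Against the genes marked in 9 of 9 libraries, whatever their function, the members' share was again the higher for NRF1 (7.99% of those windows) and for the estrogen-related receptors (2.96%), while ETS was found in 21.2% of them. In the 45 windows of members marked in 9 of 9 libraries, CCAAT was found in 57.8%, against 37.2% of the windows of all genes so marked, and GGGCGG in 37.8% against 70.1%. NRF1 was found in 15.6% of these 45 windows and ETS in 31.1%. A match describes letters in a window and does not show that a factor binds there.

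**Figure D3:**
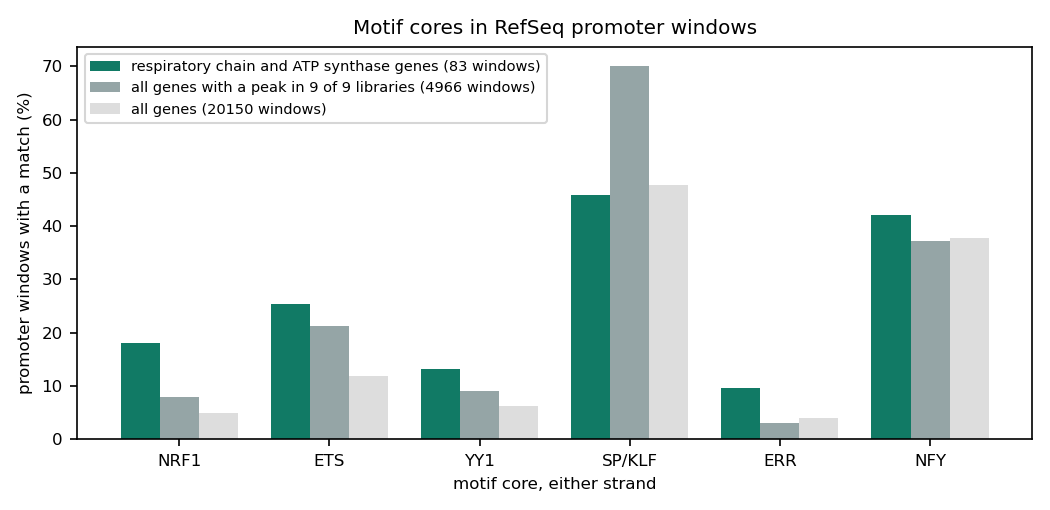
Percentage of RefSeq promoter windows that hold each motif core on either strand (y axis), for the members (83 windows), for all genes with a peak in 9 of 9 libraries (4966) and for all genes (20150). The bars of the members are the tallest for NRF1, ETS, YY1, ERR (estrogen-related receptors) and NFY, and for SP/KLF the members lie at 45.8%, below the 70.1% of the always marked genes.

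Sequences that hold these cores are shown for 6 members marked in 9 or 10 libraries, with the NRF1, ETS or YY1 core in capitals. Sdhd anchors complex II in the membrane, Uqcrh is the hinge protein of complex III, Cox6a1 and Atp5e are subunits of complex IV and of the F1 part, and Ndufa6 and Ndufb6 are accessory subunits of complex I. The stretches are chr9:50603850-50603909 (minus strand), chr4:116075072-116075221 (minus), chr2:174464106-174464255 (minus), chr5:115348982-115349129 (minus), chr15:82354323-82354472 (minus) and chr4:40279422-40279571 (minus).
Sdhd: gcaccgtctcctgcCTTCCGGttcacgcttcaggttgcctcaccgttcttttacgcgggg
Uqcrh: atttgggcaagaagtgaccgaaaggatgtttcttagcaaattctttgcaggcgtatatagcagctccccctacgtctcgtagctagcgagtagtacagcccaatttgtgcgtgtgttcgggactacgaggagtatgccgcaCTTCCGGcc
Atp5e: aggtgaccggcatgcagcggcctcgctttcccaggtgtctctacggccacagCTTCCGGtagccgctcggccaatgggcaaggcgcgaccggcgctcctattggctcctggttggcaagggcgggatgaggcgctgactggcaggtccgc
Cox6a1: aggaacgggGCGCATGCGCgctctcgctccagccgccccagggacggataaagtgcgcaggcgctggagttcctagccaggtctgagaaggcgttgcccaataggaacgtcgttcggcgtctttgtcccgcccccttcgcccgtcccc
Ndufa6: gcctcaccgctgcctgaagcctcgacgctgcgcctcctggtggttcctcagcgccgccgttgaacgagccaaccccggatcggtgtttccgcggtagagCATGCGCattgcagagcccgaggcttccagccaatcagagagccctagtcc
Ndufb6: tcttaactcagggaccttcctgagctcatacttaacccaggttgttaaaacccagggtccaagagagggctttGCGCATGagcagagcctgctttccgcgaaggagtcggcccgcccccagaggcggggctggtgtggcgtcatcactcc
The capitals are the ETS core, on the opposite strand, in Sdhd, Uqcrh and Atp5e, and the NRF1 core in Cox6a1, Ndufa6 and Ndufb6. In Cox6a1 an NRF1 core on each strand overlaps the other. The 60 bases of Sdhd are the whole gap between its start site and the exon of Timm8b, which is transcribed the other way.

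Such shared promoters were common among the members. A start site of another gene on the opposite strand lay within 1000 bp upstream of 35 of the 98 genes (35.7%), against 10.99% of all genes, and of 26 of the 48 that were marked in 9 libraries (54.2%), against 29.9% of all genes so marked. It was found for none of the 8 unmarked genes. Between 45.5% and 64.9% of the members' peaks per library overlapped the promoter window of another protein-coding gene as well, against 28.9% to 37.4% over all marked genes. Atp5j shared its peak with Gabpa, the ETS factor named above, Sdhd with Timm8b, Uqcrh with Lrrc41, Cox4i1 with Emc8, Ndufs1 with Eef1b2 and Atp5a1 with Haus1. The signal of a shared peak cannot be divided between the 2 genes, and 46 of the 98 genes had a shared peak in at least 1 library.

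The genes with the strongest and the weakest peaks were read for each complex. Taken as the median over the 9 libraries, the highest percentile by highest coverage in each complex was that of Ndufa11 in complex I (98.3), Sdhaf2 in complex II (96.1), Uqcrh in complex III (99.2), Cox4i1 in complex IV (96.95) and Atp5j in the ATP synthase (97.7). The lowest median, over the libraries with a peak, was that of Ndufaf4 (11.7), Sdhaf4 (17.7), Uqcrfs1 (25.6), which encodes the Rieske iron-sulphur protein, Cox7a2 (8.33) and Atp5mpl (31.6). Uqcrh lay at the 96.3 percentile or above in 9 of the 10 libraries and at 65.9 in Pdgfra+ nEnd 2. Atp5j was likewise lowest there, at 70.4, against 92.6 or more elsewhere.

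By median, peaks of the members were somewhat higher and narrower than those of all marked genes in most libraries. The gap was small in some, such as 3421 against 3472 bp in Oct4+ nEnd 2. These shifts were not tested, and the complexes differed in both height and width. By highest coverage their median percentile per library ran from 50.2 to 69.4 and was above that of all marked genes in 9 of 10 libraries. By total signal it ran from 44.7 to 61.8 and was above that of all marked genes in only 3 of 10. Their median width was below that of all marked genes in 9 of 10 libraries, by 51 to 352 bp in the 9 libraries used for the comparisons. In these 9 libraries, at peaks that belong to 1 gene, the summit lay downstream of the nearest start site for 78.6% to 92.7% of members per library (22 to 48 genes), against 68.7% to 77.1% of all genes.

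Populations were compared over the 4771 genes with a promoter peak in each of the 9 libraries, which include 48 members. For each of these genes the percentile was taken again among the 4771, and limma was fitted over all of them, with Benjamini-Hochberg adjustment over the 4771 and an adjusted p under 0.05 as the call. The other members had no peak in at least 1 library and could not enter. Both comparisons with Oct4+ nEnd share its 3 libraries. Because the cells were profiled in bulk, fewer cells with the mark and less of the mark per cell cannot be told apart.

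Between DP and Pdgfra+ nEnd no member was called in any of the 3 measures. By highest coverage 0% of all genes were called, by total signal 0.817% and by width 0.293%, so 0 of 48 is what this background gives. At an unadjusted p under 0.05 there were 2 members by highest coverage (146 genes in all), 4 by total signal (459) and 3 by width (408). The members' differences by total signal, DP minus Pdgfra+, ran from -20.8 to 30.5 percentile points with a median of 0.26, where the median of all genes was -0.75. The medians by complex were 0.38 for complex IV, -11.7 for complex II (3 genes), 4.24 for the ATP synthase, -0.05 for complex I and 0.13 for complex III.

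Oct4+ nEnd differed from both other populations at a minority of members. By total signal 7 of the 48 (14.6%) were called against DP nEnd, 5 higher and 2 lower in Oct4+ nEnd, where 28.8% of all genes were called. Against Pdgfra+ nEnd 9 of 48 (18.8%) were called, 7 higher and 2 lower, where 41.3% of all genes were called. By highest coverage 2 members were called against DP nEnd (5.95% of all genes) and 1 against Pdgfra+ nEnd (10.3%), and by width 0 (0.692%) and 1 (7.57%). The members' share was below the background in all 6 counts. By highest coverage and by width these counts were 2 members or fewer. All 6 share the Oct4+ libraries, and the shares were not tested against the background. Of the calls by total signal, those of Ndufb3 against DP nEnd and Ndufs1 against Pdgfra+ nEnd were also made by highest coverage, and the others were not. Single libraries moved these counts. Against DP nEnd by total signal 11 of 66 members were called without Oct4+ nEnd 4 (23.8% of all genes), 11 of 53 without Pdgfra+ nEnd 2 (33.2%) and 4 of 48 without DP nEnd 3 (19.5%), and against Pdgfra+ nEnd 17 of 66 without Oct4+ nEnd 4 (35.7%). By highest coverage no member was called against DP nEnd without any 1 of the DP libraries, where 0.88% to 1.19% of all genes were called. Nor was one called against Pdgfra+ nEnd without any 1 of the DP libraries (5.72% to 6.75%) or without Pdgfra+ nEnd 2 (8.11%).

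**Figure D4:**
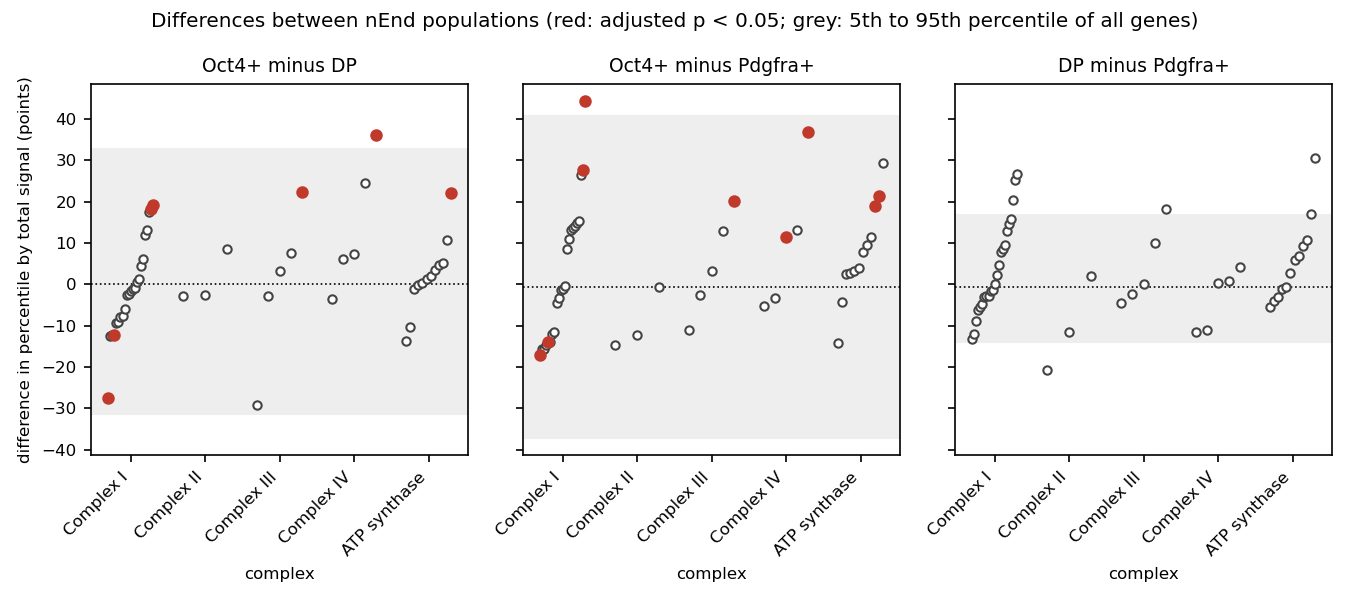
Difference in percentile by total signal (y axis, points) for the 48 members fitted, by complex (x axis), in the 3 comparisons, with called members in red, the range from the 5th to the 95th percentile of all 4771 genes in grey and their median dotted. Called members appear in both comparisons with Oct4+ nEnd, 7 and 9 of 48, and none in DP minus Pdgfra+ nEnd.

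Cox5a, a matrix subunit of complex IV (chr9:57521274-57532426, plus strand), had the largest called gain in Oct4+ over DP nEnd by total signal among the 48 members fitted. By total signal it lay at the 72.5, 68.8 and 83.5 percentile in Oct4+ nEnd 1, 2 and 4, at 40.4, 33.2 and 42.5 in DP nEnd and at 32.95, 56.0 and 25.3 in Pdgfra+ nEnd. The Oct4+ values lay above all others. The difference was 36.2 points from DP nEnd (SE 8.27, limma adjusted p = 0.0088) and 36.8 from Pdgfra+ nEnd (SE 8.27, limma adjusted p = 0.0056). Both calls held without any single library. They were lost when replicate number was added to the fit (limma adjusted p = 0.077 and 0.055). Its peak was not shared with another gene.

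Ndufs1, the largest core subunit of complex I and an iron-sulphur protein, was higher in Oct4+ than in Pdgfra+ nEnd by both measures of signal. By total signal it lay at 82.4, 87.6 and 87.7 in Oct4+, at 75.1, 72.2 and 71.4 in DP and at 66.2, 45.5 and 63.5 in Pdgfra+ nEnd, with no overlap between the 3 populations. The difference from Pdgfra+ nEnd was 27.6 points (SE 5.43, limma adjusted p = 0.0028). By highest coverage it was 45.1 points (SE 12.4, limma adjusted p = 0.037), and that call was lost without Oct4+ nEnd 2 or 4 (0.096 and 0.086), without DP nEnd 1, 2 or 3 (0.057, 0.067 and 0.052) and without Pdgfra+ nEnd 1 or 2 (0.057 and 0.083), where Pdgfra+ nEnd 2 had its lowest value, 11.04, and the difference without it was 30.7. The peak is shared with Eef1b2.

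Cox4i1 and Atp5a1 differed by less, with little spread between libraries. Cox4i1 lay by total signal at 90.5, 94.9 and 89.98 in Oct4+, 85.1, 84.2 and 84.3 in DP and 78.6, 84.2 and 78.5 in Pdgfra+ nEnd. It was 11.4 points higher in Oct4+ than in Pdgfra+ nEnd (SE 2.48, limma adjusted p = 0.0047). Atp5a1, the alpha subunit of F1, lay at 61.4, 58.1 and 59.8 in Oct4+, 50.5, 47.2 and 49.2 in DP and 43.1, 33.6 and 38.4 in Pdgfra+ nEnd, and was 21.4 points higher in Oct4+ than in Pdgfra+ nEnd (SE 5.33, limma adjusted p = 0.0094). By highest coverage Atp5a1 was not called, with differences of -6.74 points from DP and 0.98 from Pdgfra+ nEnd (limma adjusted p = 0.68 and 0.96), and Cox4i1 was not called either, with 6.68 and 4.76 (limma adjusted p = 0.31 and 0.44). By total signal the Oct4+ values lay above the others for both genes, and both share their peak, Atp5a1 with Haus1 and Cox4i1 with Emc8. The differences from DP nEnd by total signal, 7.23 points for Cox4i1 and 10.8 for Atp5a1, were not called (limma adjusted p = 0.051 and 0.16).

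Ndufa11, a membrane subunit of complex I, was lower in Oct4+ nEnd. By total signal it lay at 76.2, 81.7 and 75.6 in Oct4+, 92.6, 86.9 and 90.7 in DP and 91.7, 98.1 and 94.8 in Pdgfra+ nEnd. It was below DP nEnd by 12.3 points, written as -12.3 (SE 2.65, limma adjusted p = 0.0066), and below Pdgfra+ nEnd at -17.0 (SE 2.65, limma adjusted p = 0.00070), and the Oct4+ values lay below all others. Over the fits that left out a library, the differences ran from -14.2 to -7.68 and from -19.0 to -11.2 points, and stayed called. The call against DP nEnd was lost when replicate number was added to the fit (limma adjusted p = 0.052). On log2 signal in place of percentiles the difference from DP nEnd was not called (-0.27, limma adjusted p = 0.150). It shares its peak with Vmac.

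Ndufb3, another accessory subunit of complex I, was lower in Oct4+ than in DP nEnd by both measures. By total signal it lay at 7.24, 25.3 and 14.5 in Oct4+, 38.0, 45.6 and 46.0 in DP and 26.5, 34.0 and 30.4 in Pdgfra+ nEnd. The difference from DP nEnd was -27.5 points (SE 5.72, limma adjusted p = 0.0053) and it was not called without Oct4+ nEnd 4 (-20.6, adjusted p = 0.059). By highest coverage it was -40.4 points (SE 10.7, limma adjusted p = 0.044), and this call was lost when any of Oct4+ nEnd 1 or 4, the 3 DP libraries, or Pdgfra+ nEnd 1 or 3 was left out, with adjusted p from 0.050 to 0.19. The peak is shared with Fam126b.

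**Figure D5:**
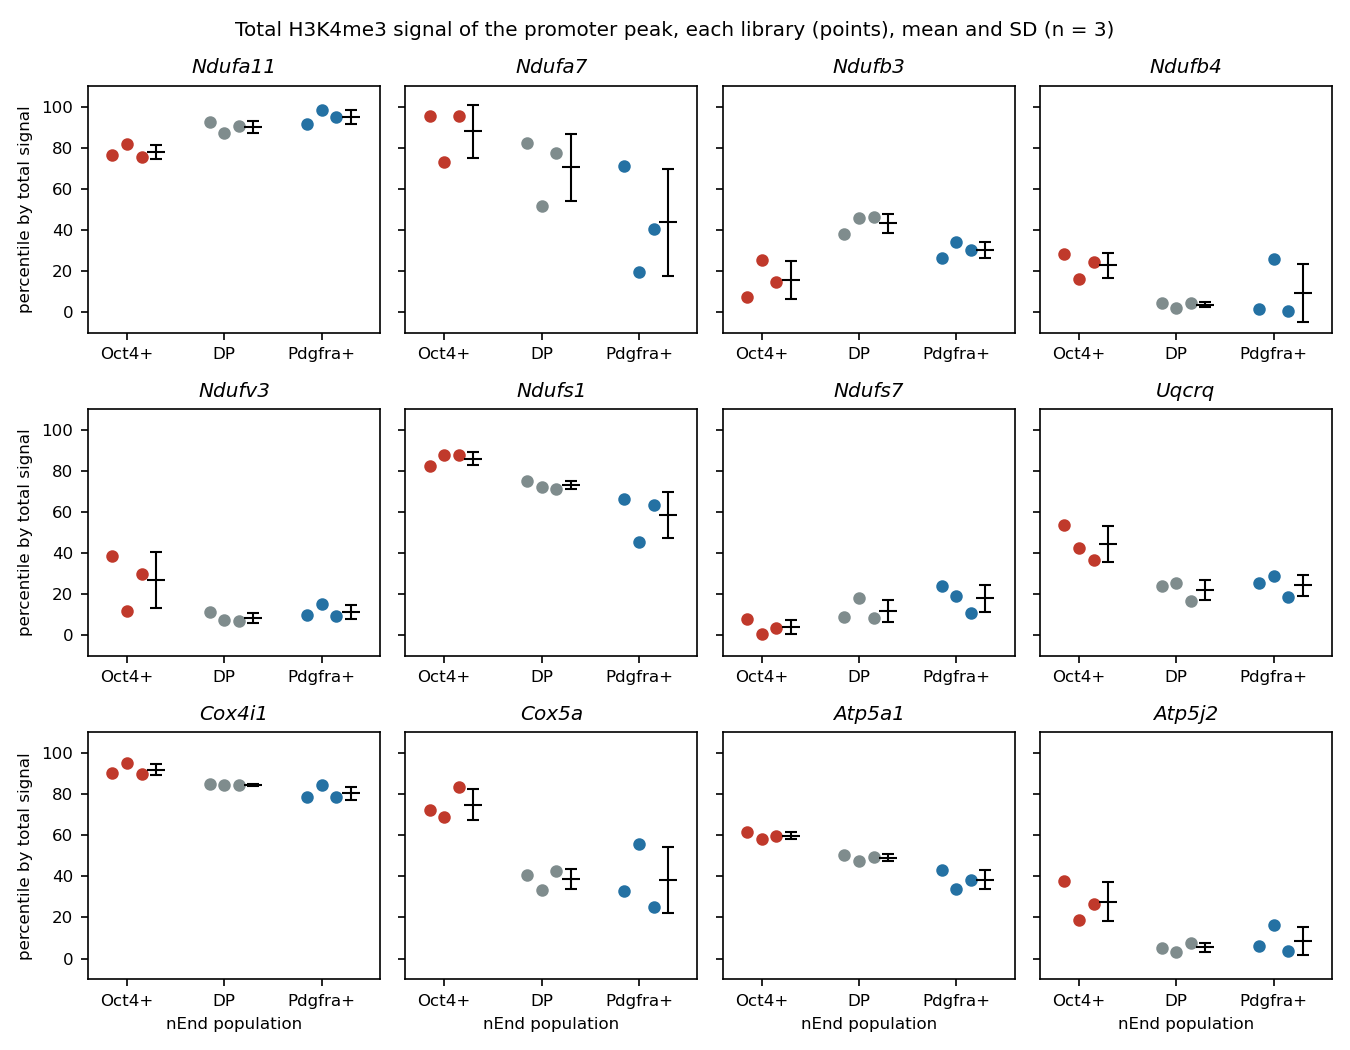
Percentile of the promoter peak by total signal among the 4771 genes fitted (y axis) for the 12 members called in either comparison with Oct4+ nEnd. Points are the 3 libraries of each population, and the bar beside them gives the mean and SD. Oct4+ nEnd lies above both other populations for Cox5a, Cox4i1, Atp5a1, Ndufs1, Uqcrq and Atp5j2, and below them for Ndufa11, Ndufb3 and Ndufs7.

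Atp5j2 and Uqcrq, small subunits of the ATP synthase and of complex III, were called in both comparisons. Atp5j2 lay by total signal at 37.7, 18.9 and 26.3 in Oct4+, 5.37, 3.42 and 7.63 in DP and 5.99, 16.2 and 3.65 in Pdgfra+ nEnd, with differences of 22.2 points (SE 5.23, limma adjusted p = 0.010) and 19.0 (SE 5.23, limma adjusted p = 0.015). The second was lost without Pdgfra+ nEnd 3 (16.5, adjusted p = 0.059). Over all fits that left out a library, the differences ran from 17.1 to 32.1 and from 14.0 to 31.9 points. Both calls were lost when replicate number was added to the fit. With Oct4+ nEnd 3 included the differences were 12.04 and 8.95 (limma adjusted p = 0.050 and 0.11). Uqcrq averaged 44.3 ± 8.72 in Oct4+, 22.0 ± 4.77 in DP and 24.3 ± 5.13 in Pdgfra+ nEnd (SD, n = 3). Its differences of 22.3 and 20.03 points (SE 5.83, limma adjusted p = 0.017 and 0.020) were not called without DP nEnd 3 for the former (0.076), and without Oct4+ nEnd 1 or Pdgfra+ nEnd 3 for the latter (0.055 and 0.069). By highest coverage Uqcrq was 16.1 points from DP and -1.13 from Pdgfra+ nEnd, neither of them called (limma adjusted p = 0.59 and 0.97), and its peak is shared with Gdf9.

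Ndufb4, Ndufv3, Ndufa7 and Ndufs7 of complex I were called in 1 comparison each by total signal. Ndufb4 averaged 22.8 ± 6.16 in Oct4+ and 3.67 ± 1.28 in DP nEnd (SD, n = 3), a difference of 19.1 points (SE 6.33, limma adjusted p = 0.045) that was not called without Oct4+ nEnd 1 or any 1 of the DP libraries (adjusted p from 0.10 to 0.12). Over all fits that left out a library, this difference ran from 16.5 to 30.5 points. By highest coverage Ndufb4 was -2.48 points from DP nEnd and not called (limma adjusted p = 0.95). Ndufv3, which shares its peak with Wdr4, averaged 26.7 ± 13.6 and 8.63 ± 2.41 (SD, n = 3), a difference of 18.1 (SE 6.02, limma adjusted p = 0.046), called without Oct4+ nEnd 2 or 4 but not without any other single library (adjusted p from 0.059 to 0.12). Ndufa7, which shares its peak with Rps28 and Kank3, averaged 88.0 ± 12.8 in Oct4+ and 43.7 ± 26.1 in Pdgfra+ nEnd (SD, n = 3), a difference of 44.2 (SE 12.6, limma adjusted p = 0.018). It was 29.7 without Pdgfra+ nEnd 2 (adjusted p = 0.063) and was not called without Oct4+ nEnd 1 or 4 or Pdgfra+ nEnd 3 (0.058, 0.057 and 0.052). Ndufs7, a core subunit, was lower in Oct4+ nEnd, with 3.996 ± 3.60 against 18.0 ± 6.46 in Pdgfra+ nEnd (SD, n = 3), a difference of -14.0 (SE 4.40, limma adjusted p = 0.028) that was not called without Oct4+ nEnd 2 or 4 or Pdgfra+ nEnd 1 (0.077, 0.25 and 0.086).

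Atp5e, the epsilon subunit of F1, was called by highest coverage and not by total signal. It lay by highest coverage at 64.2, 27.9 and 45.4 in Oct4+, 3.32, 1.10 and 5.73 in DP and 11.4, 27.4 and 7.60 in Pdgfra+ nEnd. The difference from DP nEnd was 42.5 points (SE 9.20, limma adjusted p = 0.019), and it was not called without DP nEnd 1, 2 or 3 (0.091, 0.10 and 0.081). The Oct4+ values lay above all DP values.

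Ndufb4 was the member whose peak differed in width. The peak measured 8076, 5898 and 4713 bp in Oct4+ nEnd 1, 2 and 4, 4871, 3204 and 4619 bp in DP nEnd and 2632, 1691 and 2319 bp in Pdgfra+ nEnd, so the Oct4+ and Pdgfra+ values did not overlap. After each library was centred on its median width, the difference between Oct4+ and Pdgfra+ nEnd was 1.14 on the log2 scale (SE 0.22, limma adjusted p = 0.0087).

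Some members that could not enter the comparison differed in the libraries that had them. Uqcrc2, a large matrix-facing subunit of complex III, lay by highest coverage among all peaks of the library at 50.6 and 44.9 in Oct4+ nEnd 1 and 2, with no peak in replicates 3 and 4, at 92.4, 86.7 and 77.3 in DP and at 91.3, 97.1 and 74.5 in Pdgfra+ nEnd. In the fit without Oct4+ nEnd 4 (6652 genes) it was lower in Oct4+ nEnd by total signal, at -46.0 points from DP nEnd (SE 7.62, limma adjusted p = 0.0028) and -49.8 from Pdgfra+ nEnd (SE 7.62, limma adjusted p = 0.0012). Ndufa13, an accessory subunit of complex I also known as GRIM-19, had no peak in Pdgfra+ nEnd 2. By total signal it lay among the peaks of each library at 88.8, 82.6, 62.3 and 84.0 in Oct4+ nEnd 1 to 4, at 50.7, 40.9 and 31.9 in DP and at 44.3 and 23.2 in Pdgfra+ nEnd 1 and 3. In the fit of Oct4+ and DP nEnd alone (5263 genes) the difference was 60.0 points (SE 6.42, limma adjusted p = 0.00062), and its peak is shared with Tssk6 and Yjefn3. Atp5g2, a gene of the c subunit that forms the rotor ring, was higher in Oct4+ nEnd in the same fit, by 42.2 points (SE 5.01, limma adjusted p = 0.00090). These 3 genes are named because their values stood out, so their p-values are not independent of that choice. The fit without Oct4+ nEnd 4 rests on 2 Oct4+ libraries, and its shares of all genes called are given above. By total signal 33.5% of all genes were called in the fit of Oct4+ and DP nEnd alone. The fit without Oct4+ nEnd 4 also called Uqcrb (14.1 and 15.6 points) and Ndufaf6 (19.2 and 15.3) higher in Oct4+ than in DP and Pdgfra+ nEnd, and against Pdgfra+ nEnd Atp5o higher (13.8) and Uqcrfs1 lower (-13.8).

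Neighbouring pathways were read from lists of genes in the same fit, where 28.8% of all genes were called by total signal against DP nEnd and 41.3% against Pdgfra+ nEnd. Of 38 assembly factors and electron carriers outside the rule, 12 were fitted. By total signal, Sco1, a copper chaperone of complex IV, was higher in Oct4+ than in DP nEnd by 33.9 points (SE 5.20, limma adjusted p = 0.0010), and 4 were called against Pdgfra+ nEnd, Sco1, Sco2 and the ATP synthase inhibitor Atpif1 higher and the complex I assembly factor Timmdc1 lower. The peaks of Sco1, Sco2 and Atpif1 are shared with other genes. Sco2 was not called without Oct4+ nEnd 1 or Pdgfra+ nEnd 3 (limma adjusted p = 0.059 and 0.075), and Timmdc1 was not called without any 1 library other than Pdgfra+ nEnd 2 (0.059 to 0.22). Of 18 genes of the TCA cycle, 10 were fitted, and Pdha1 of pyruvate dehydrogenase was higher in Oct4+ nEnd by 16.4 and 17.2 points (SE 4.09, limma adjusted p = 0.013 and 0.0075), and the former was not called without DP nEnd 2 (0.051). With Oct4+ nEnd 3 included they were 7.89 and 7.61 points and not called (0.084 and 0.078). Of 16 fatty acid oxidation genes, 4 were fitted, and Acaa2, the mitochondrial thiolase, was lower in Oct4+ nEnd, at -38.9 points from DP and -68.3 from Pdgfra+ nEnd (SE 6.57, limma adjusted p = 0.0018 and 4.0e-05).

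Of 20 glycolysis genes, 14 were fitted, and 4 were called by total signal between Oct4+ and Pdgfra+ nEnd, where 41.3% of all genes were called, Slc2a3, Pgam1 and Pkm higher in Oct4+ nEnd and Pfkl lower. Pgam1 was not called without Oct4+ nEnd 1 or Pdgfra+ nEnd 2 or 3 (limma adjusted p from 0.053 to 0.069), nor Pfkl without Oct4+ nEnd 2 or 4 or Pdgfra+ nEnd 2 or 3 (0.050 to 0.22). Slc2a3, a glucose transporter, was the only gene of these metabolic lists called between DP and Pdgfra+ nEnd, by total signal. It lay at the 90.7, 88.6 and 89.4 percentile in DP and at 52.0, 13.3 and 44.8 in Pdgfra+ nEnd, a difference of 52.8 points (SE 8.06, limma adjusted p = 0.016). It was not called without Oct4+ nEnd 4 or without any 1 of the DP libraries (adjusted p from 0.067 to 0.089), on log2 signal (0.072) or with DP and Pdgfra+ nEnd alone (44.4 points, 0.14). Without Pdgfra+ nEnd 2, its lowest value, the difference was 38.4 points (SE 2.67, limma adjusted p = 0.00055). Among 14 regulators of respiratory chain genes, 9 were marked in 9 of 9 libraries, among them Nrf1, Gabpa, Yy1 and Esrra, and Ppargc1a, which encodes PGC-1alpha, was marked in none. Esrra, for an estrogen-related receptor, was lower in Oct4+ nEnd by total signal, at -32.4 points from DP and -34.8 from Pdgfra+ nEnd (SE 4.99, limma adjusted p = 0.0010 and 0.00042), and Sp1 was higher by 26.9 and 29.8 points (SE 7.35, limma adjusted p = 0.020 and 0.0090), the former not called without Oct4+ nEnd 1 or DP nEnd 2 or 3 (0.062, 0.054 and 0.075). The peak of Esrra is shared with another gene.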

How the data were processed

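H3K4me3 CUT&Tag was analysed in 10 libraries of sorted nEnd. Per the labels and the study's methods, the authors demultiplexed with bcl2fastq 2.19.1, aligned to mm10 with Bowtie2, used SAMtools 1.12 and bedtools 2.26.0, and ran SEACR in its stringent mode, with IgG as control. The deposited values are signal, as the total and the highest coverage of each peak, not scaled between libraries. Depth is unknown, so no interval was computed. The study states 3 biological replicates, and p-values measure the spread between libraries. The deposited consensus lists were used for positions only.

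Promoter windows, from 1000 bp upstream to 100 bp downstream, were set on 93513 start sites of 21938 nuclear protein-coding genes of GENCODE M21, with an overlap of 1 bp. For a gene with several peaks the one with the highest total signal was taken. Percentiles were compared with limma 3.58.1 (R 4.3.3, trended variance) over the 4771 genes with a peak in 9 libraries, Oct4+ nEnd replicate 3 left out, with Benjamini-Hochberg adjustment. Width was log2 bp centred on the library median. The fit was tested on simulated data. Members and lists were chosen with earlier results of these data known. Genes named were every member called, the strongest and weakest of each complex, the isoform pairs and the unmarked members. Uqcrc2, Ndufa13 and Atp5g2 were added because their values stood out, and some members called only in an alternative fit were listed with them. The alternatives were promoters reaching 2500 bp to either side, a peak covering 50% of a window, equal numbers of peaks, all 10 libraries, each pair of populations alone, a replicate block, log2 signal, the peak with the highest coverage, genes sharing a peak left out, each library left out, and, chosen after seeing the data, start sites of coding transcripts. Sequences are RefSeq GRCm38.p6. Tables used Python 3.11.15, numpy 2.4.6 and pandas 2.3.3, and figures matplotlib 3.10.9.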

Additional observations from a re-analysis of the deposited data

Results flagged for a closer look

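Oct4+ nEnd replicate 3 entered no comparison between populations. It holds promoter peaks at 37 of the 98 genes, and 35 of these were marked in all 9 other libraries. Oct4+ nEnd replicate 4 had a peak at each of the 37.

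Ndufa11 stood apart in 1 library of its group. By highest coverage among the peaks of the library it lay at the 77.4 percentile in Oct4+ nEnd replicate 4 and at 95.9, 95.2 and 95.5 in replicates 1 to 3. Dixon's test was applied to 29 sets of 4 Oct4+ libraries, with this 1 outlying sample. Chance gives about 1 in 20 sets, so 1 among 29 sets is no more than chance gives.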

How the results depend on the processing

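No called difference of a named member changed direction under any alternative run. Counting each named member under each alternative, 287 differences stayed called and 65 did not. By total signal Ndufa11, Atp5a1, Ndufs1 and Cox4i1 against Pdgfra+ nEnd, and by width Ndufb4, stayed called in every alternative run for them.

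Members called by highest coverage against DP nEnd (2) came to 1 with a peak covering 50% of a window, with equal numbers of peaks, with each pair of populations alone, with log2 signal and with genes sharing a peak left out, to 0 with all 10 libraries, and to 0 to 3 when a library was left out. Against Pdgfra+ nEnd (1) they came to 2 with equal numbers of peaks or all 10 libraries, to 0 with the pair alone or genes sharing a peak left out, and to 0 to 2 without a library. By total signal, those against DP nEnd (7) came to 11 with the pair alone, 3 with genes sharing a peak left out and 4 to 11 without a library, and those against Pdgfra+ nEnd (9) to 4 with genes sharing a peak left out and 8 to 17 without a library. By width against Pdgfra+ nEnd (1) they came to 0 with equal numbers of peaks or all 10 libraries, 2 with genes sharing a peak left out and 1 to 2 without a library. With each pair of populations alone, calls by total signal were lost for Ndufv3 (adjusted p = 0.14) and Uqcrq (0.050) against DP nEnd and for Ndufs7 (0.050) and Uqcrq (0.058) against Pdgfra+ nEnd, and by highest coverage for Ndufb3 (0.050) and Ndufs1 (0.11). On log2 signal, calls were lost for Ndufa11 (0.150), Ndufb4 (0.149), Ndufv3 (0.112) and Uqcrq (0.063) against DP nEnd and Uqcrq (0.057) and Ndufs7 (0.059) against Pdgfra+ nEnd, all adjusted p by total signal, and for Ndufb3 by highest coverage (0.056). No member was called between DP and Pdgfra+ nEnd in any setting. Members marked in every DP library fell from 78 to 48 with equal numbers of peaks, and without a library the counts were 53 to 79 in Oct4+, 78 to 80 in DP and 66 to 80 in Pdgfra+ nEnd. Leaving out genes that share a peak left 16 of the 48 members to be fitted. For the other settings the cause was not tested.

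Same-numbered libraries did not deviate together throughout, with correlations of -0.059 to 0.28 by highest coverage over 7 pairs. By total signal they were -0.13 to 0.23 and by width -0.084 to 0.093. Differently numbered libraries gave -0.43 to 0.30, -0.31 to 0.18 and -0.12 to 0.090 over 20 pairs. The ranges overlapped and no label says what a number marks, so the numbers were not taken to pair the libraries. Whether they do was not settled. With the replicate block, members called by highest coverage came to 0 against DP and 0 against Pdgfra+ nEnd, and by total signal to 2 and 8. With the block, calls were lost by total signal for Cox5a (adjusted p of 0.077 and 0.055) and Atp5j2 (0.055 and 0.066) in both comparisons and for Ndufa11 (0.052), Ndufb4 (0.20) and Ndufv3 (0.16) against DP nEnd, and by highest coverage for Atp5e (0.092), Ndufb3 (0.17) and Ndufs1 (0.13).

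Over all genes, 284 calls by highest coverage against DP nEnd came to 119 with the replicate block, 179 with equal numbers of peaks and 42 to 57 without a DP library, and 493 against Pdgfra+ nEnd to 168, 327 and 273 to 322, and to 133 with the pair alone. By total signal 1970 against Pdgfra+ nEnd came to 1307 with genes sharing a peak left out, 1375 against DP nEnd to 906 without DP nEnd 2, and 39 between DP and Pdgfra+ nEnd to 2 with the pair alone or log2 signal. By width, 361 against Pdgfra+ nEnd came to 109 with the replicate block, 33 against DP nEnd to 9 with all 10 libraries, and 14 between DP and Pdgfra+ nEnd to 1 with the replicate block. Read depth is not known for these libraries, and a gene without a peak may hold signal below the threshold.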

Other observations

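By width, 7.57% of all genes were called between Oct4+ and Pdgfra+ nEnd. In the lists, the calls were wider peaks in Oct4+ nEnd at Slc2a3, Atpif1, Sco2, Sp1 and Nrf1, and narrower ones at Acaa2 and Cox14. By highest coverage, where 10.3% of all genes were called, they were Slc2a3, Aldoa, Surf1 and Atpif1 higher in Oct4+ nEnd and Acaa2 lower. The peaks of Aldoa, Surf1, Atpif1 and Sco2 are shared with other genes. These calls are given without their values under the alternatives.

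All 18 genes of the TCA cycle were marked in every DP library and 17 in every Pdgfra+ library, against 10 in every Oct4+ library. For fatty acid oxidation these counts were 12, 10 and 6 of 16. For glycolysis they were 17, 15 and 17 of 20. Over all genes the share marked in every library was 38.6% in DP, 33.2% in Pdgfra+ and 25% in Oct4+ nEnd. Oct4+ nEnd 4 had the fewest peaks of the 9 libraries, and its part in the lower counts of Oct4+ nEnd was not tested.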
